A study of Mus musculus with 24 samples.

Results

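The genes described are those of the cytosolic ribosomal proteins, the protein components of the ribosome outside mitochondria. They were taken as all array probes whose platform annotation gives exactly 1 gene symbol that starts with Rpl or Rps and a digit, or with Rplp, or is Rpsa. Ribosomal S6 kinases and pseudogene symbols were left out. The rule found 69 genes of 6970 that the 2 value tables name, on 165 of 15360 probes. The first deposited table held 54 of these probes, for 35 genes, and the second 111 probes, for 60 genes. Both tables measured 26 of the genes, 9 were measured in the first table only and 34 in the second only. A further 10 and 21 probes list a ribosomal protein among several symbols and were not used.

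The study exposed cultured mouse embryos to 40 µM 4-hydroperoxycyclophosphamide (4CP, a form of the anticancer drug cyclophosphamide that needs no activation by the liver) for 1 h at 37 °C, and compared them with untreated embryos kept at the same temperature. Each of 24 two-channel arrays received RNA from both groups, so each value is a ratio of treated and untreated embryos. Each table holds 3 pairs of slides with the channels swapped between the slides of a pair, and each slide has 2 array records, told apart by a letter. Channel 1 held the treated RNA on 12 arrays and the control RNA on the other 12. The sources used here do not give strain, genotype, stage, pooling or dyes. The labels do not say that the pairs come from separate cultures, so the p-values reflect no more than how slide pairs varied, and that variation may be technical. Ratios carry no level of RNA, so the label of the tissue could not be checked against marker genes, and levels of different genes are not compared. In whole embryos, fewer cells of a type and less RNA per cell cannot be told apart.

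A ribosome has a large 60S subunit, which joins amino acids and carries the Rpl proteins, and a small 40S subunit, which reads the mRNA and carries the Rps proteins. Most of these proteins are needed in equal numbers, and their mRNAs are among the most abundant of growing embryonic cells. Most of these mRNAs begin with a tract of pyrimidines, which lets cells set their translation together with that of elongation factors in response to growth signals. Some free ribosomal proteins, among them Rpl5, Rpl11 and Rpl23, bind Mdm2 when ribosome assembly fails, which ties the family to the p53 response to stress.

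The start region of the genes is shown because the family is known for it. Promoter windows of 300 bases (250 before and 50 after the transcription start, RefSeq, build GRCm38.p6) were found for 56 of the 69 genes. A run of at least 8 bases of C or T that touched the 10 bases either side of the start was present in 26 of 56 genes (46.4%), against 15.8% of 27025 mouse genes with a window. The sequence CTCTTTC lay on the sense strand within 25 bases of the start in 6 of 56 (10.7%), against 0.810% of all genes. The motif CCGGAAG, a core of ETS factor sites, was present on either strand of 24 of 56 windows (42.9%), against 9.93% of all. TATAAA on either strand was present in 5 of 56 (8.93%), against 15.7% of all. A match describes these letters and is not evidence of a bound site. Below are 30 bases before and 20 after the start for genes with a window. They are the 3 with the lowest orientation mean (a quantity defined after the sequences) in the second table, and 3 with high ones. The latter are not strictly the highest of that table. Rpl8 (-0.38), Rps14 (-0.42) and Rpl3 (-0.51) had higher second-table means than Rps9 (-0.54) and are not shown. Capitals mark the pyrimidine run at the start. It was present in Rpl39, Rps26, Rps27 and Rps9 and absent from the windows of Rps3 and Rpl7l1. By the same choice in the first table, Rps26, Rpl26 and Rps15a were low and Rps2, Rpl7l1 and Rps3a1 high. There, Rps26 and Rps15a had the run, while Rpl26 (-1.12) and the high genes did not. Genes were picked by their orientation means, and a link between the run and these values was not tested. A tract shorter than 8 bases, or one at a start other than the annotated one, was not counted. Absence of the run therefore does not mean that an mRNA lacks a tract.
Rpl39, chrX:37085203-37085252, minus strand: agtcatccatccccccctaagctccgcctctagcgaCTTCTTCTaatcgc
Rps26, chr10:128626487-128626536, minus strand: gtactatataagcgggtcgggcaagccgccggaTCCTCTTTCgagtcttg
Rps27, chr3:90213629-90213678, minus strand: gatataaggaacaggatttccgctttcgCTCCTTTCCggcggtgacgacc
Rps9, chr7:3704011-3704060, plus strand: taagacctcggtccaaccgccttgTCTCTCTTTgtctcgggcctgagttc
Rps3, chr7:99483690-99483739, minus strand: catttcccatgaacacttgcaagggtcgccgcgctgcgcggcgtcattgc
Rpl7l1, chr17:46782637-46782686, minus strand: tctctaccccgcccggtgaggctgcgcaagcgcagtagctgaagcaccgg

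The deposited values are log ratios whose base (2 or e) and numerator are not stated. A difference of 0.1 log units is a 1.07-fold ratio in base 2 and 1.11-fold in base e. Each array was centred on the median of its probes. For each slide pair, 2 quantities were formed from its swapped slides, the one with treated RNA in channel 1 taken first. The orientation difference is their difference divided by 2. It is the treatment effect if all values were deposited as channel 1 over channel 2. The orientation mean is their sum divided by 2. It is the component of the dyes in that case, and the ratio of treated and control RNA if swapped slides had been turned before deposit. The labels do not say which, so both are given, with signs as deposited and no statement of which embryos held more RNA.

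Ribosomal protein probes lay below the array median in both orientations and on every array. Their median was negative in 24 of 24 arrays, and 43 to 54 of the 54 first-table probes were below 0. Pair 1 of the first table had medians of -0.47 on both arrays with treated RNA in channel 1, and of -0.98 and -0.70 on the swapped slide. Pair 2 lay nearest to 0, with -0.28 and -0.12 against -0.36 and -0.26. Pair 3 lay farthest, with -1.48 and -1.34 against -1.50 and -1.47. The second table had the same order of pairs, and its swapped slides differed less. Its medians were -1.03 and -0.96 against -1.01 and -1.06 in pair 1, -0.10 and -0.20 against -0.10 and -0.08 in pair 2, and -1.45 and -1.38 against -1.50 and -1.41 in pair 3. There, 76 to 110 of the 111 probes were below 0. The spread of all probes was also uneven between arrays, with SDs of 0.24 to 0.72 and of 0.23 to 0.62 in the tables. Over all probes, arrays of swapped slides of a pair correlated at 0.54 to 0.96 and at 0.45 to 0.93, without any turn of sign. Before centring, array medians ran from -0.305 to 1.12 and from 0.272 to 2.10.

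**Figure D1:**
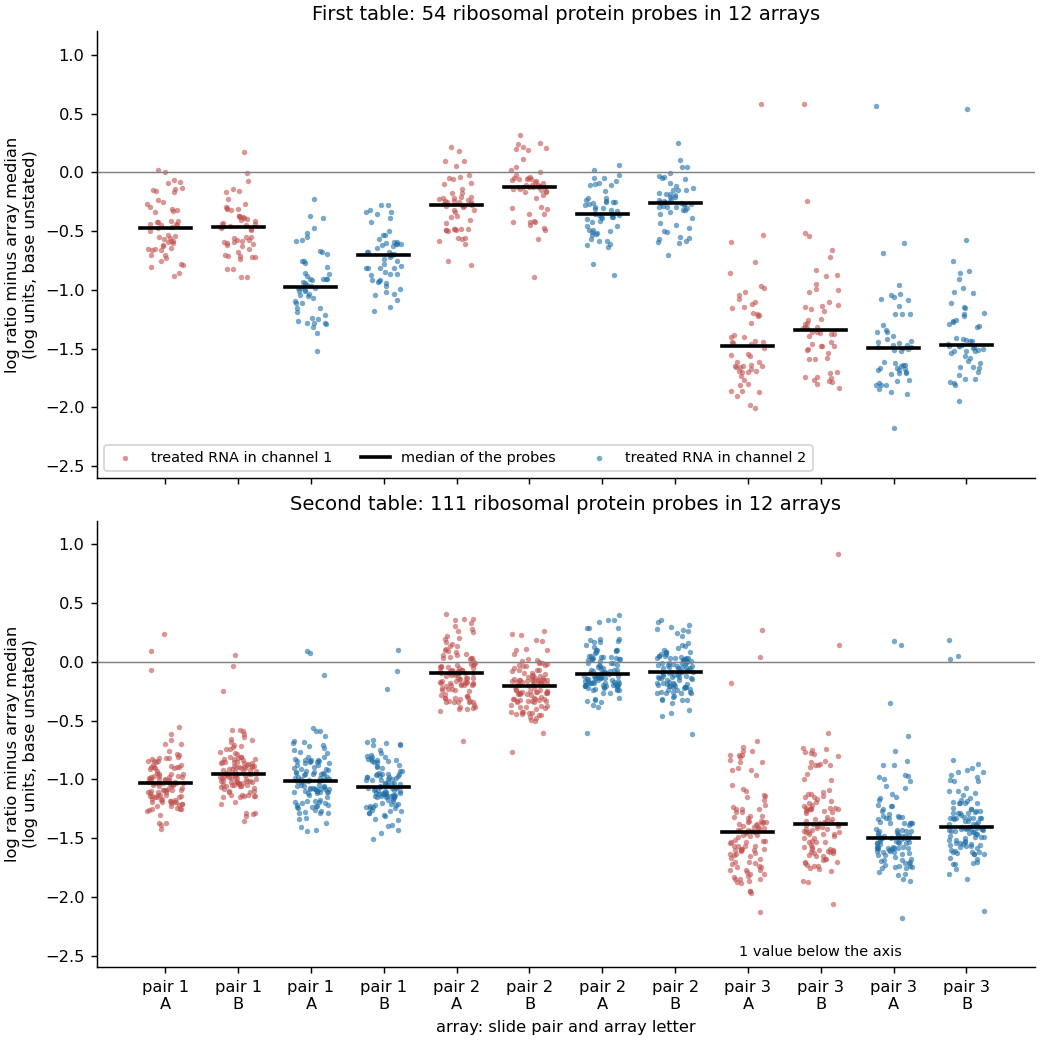
Centred log ratio (y axis, log units of unstated base) of each ribosomal protein probe on the 12 arrays of each table (x axis), red for treated RNA in channel 1, blue for channel 2, with the median as a bar. All 24 medians lie below 0, nearest to it in pair 2 and farthest in pair 3, whichever channel held the treated RNA; without centring the orientation mean of the second table turns positive, to 0.51.

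The orientation difference asks whether ribosomal protein transcripts changed sign with the channel of the treated RNA. It was small, and positive for nearly all probes of the first table and for fewer than 1 in 2 of the second. No ribosomal protein probe passed the threshold of 0.05 in limma with Benjamini-Hochberg adjustment over the table, 0 of 54 and 0 of 111, and neither did any other probe (0.0 percent called in each table). At an unadjusted limma p under 0.05, 8 of 54 were called in the first table, all positive, against 2.34% of all its probes (1.84% positive), and 0 of 111 in the second, against 5.22%. The 8 were single probes of Rpl15, Rpsa, Rpl8, Rps9, Rpl36a, Rpl23a, Rps3 and Rpl5.

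First-table probes had a median orientation difference of 0.09, with pair medians of 0.18, 0.05 and 0.03, against -0.0047 for all probes. Of the 54, 53 were positive, against 46.2% of all probes, and 39 (72.2%) were positive in all 3 pairs, against 11.4%. None was negative in all 3, against 11.2%. Without centring the median was -0.04 and only 7 of 54 were positive, but the median of all probes then moved to -0.13, and the distance between the medians was 0.09 with and without centring. Both subunits shared the pattern. For the 60S subunit the median of 35 probes was 0.09, with 26 of them above 0 in every pair. For the 40S subunit the median of 14 probes was also 0.09, with 9 above 0 in every pair. The pair 1 value was the largest of the 3 medians, and without pair 1 the median of all 54 was 0.04.

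Rpl8, a 60S protein near the catalytic centre, had the highest orientation difference of the first table. Its 3 pair values were 0.35, 0.06 and 0.10, a mean of 0.17 ± 0.15 (SD, n = 3). On arrays with treated RNA in channel 1 its centred values ran from -0.85 to 0.22 with a median of -0.11, and on the swapped slides from -1.08 to 0.04 with a median of -0.76, so that the orientations overlapped. Rps3, which lines the entry of the mRNA channel and is also known for DNA repair activity, had pair values of 0.27, 0.05 and 0.16 and a mean of 0.16 ± 0.11 (SD, n = 3). Rps9 of the 40S subunit had 0.13 ± 0.09, Rpl23a at the exit of the peptide tunnel 0.13 ± 0.11, and 1 probe of Rpl5 0.13 ± 0.07 (SD, n = 3 each). Each of these 5 was positive in all 3 pairs, and each had an adjusted p of 0.997 in limma. Rps3a1 was the exception in sign, with pair values of 0.14, -0.28 and 0.01 and a mean of -0.04 ± 0.22 (SD, n = 3).

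The second table did not show this shift. Its 111 probes had a median orientation difference of -0.0047, with pair medians of 0.03, -0.04 and 0.01, and 47 were positive, against 48.4% of all probes. The sign of so small a median turned with the processing, to 3.6e-05 with arrays scaled to equal spread and to 0.01 without pair 2. By pair, 85, 21 and 63 of the 111 probes were positive. Of all probes of the table, 3553, 3789 and 3643 were positive in those pairs, near the 3714 (48.4%) with a positive mean. A larger share of ribosomal protein probes than of all probes was thus positive in pairs 1 and 3, and a smaller one in pair 2. In all 3 pairs, 15 were positive (13.5%, against 9.84% of all probes) and 6 negative (5.41%, against 14.7%). The 60S median was -0.01 and the 40S median 0.01. The 5 most positive probes with the same sign in every pair were those of Rps19, the gene first tied to Diamond-Blackfan anaemia (0.07 ± 0.06), Rpl23 (0.07 ± 0.03), Rplp1 (0.06 ± 0.01), Rps27 (0.06 ± 0.05) and Rps20 (0.05 ± 0.04), each SD with n = 3. Rplp1 of the stalk was the steadiest of them, with 0.08, 0.06 and 0.05. Of the 6 probes negative in all pairs, the 5 lowest were those of Rps16 (-0.05 ± 0.04 and -0.03 ± 0.02), Rpl4 (-0.04 ± 0.05), Rps24 (-0.04 ± 0.03) and Rpl23a (-0.48 ± 0.77), again with n = 3. Other probes of these genes did not all share the sign: a second Rps24 probe was positive in every pair (0.03 ± 0.02), and 1 of Rpl4 had 0.04 ± 0.07 (SD, n = 3 each). The Rpl23a value rests on 1 array of pair 3, where the probe was at -5.07, while its other 11 arrays lay between -0.22 and 0.21. Without that array the mean was -0.07. The adjusted limma p-values of these probes were 0.949 to 0.977.

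**Figure D2:**
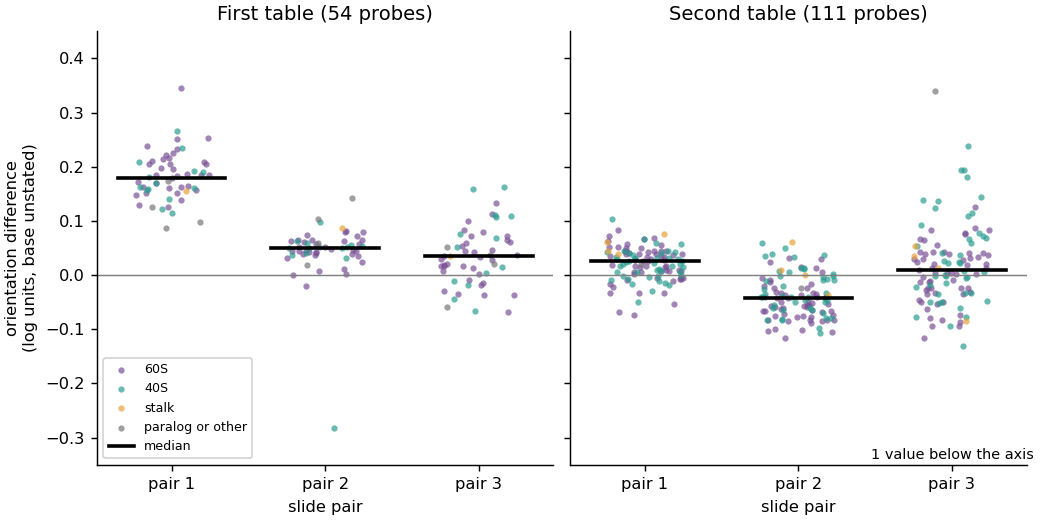
Orientation difference (y axis, log units) of each ribosomal protein probe in the 3 slide pairs (x axis) of each table, coloured by role, with the median as a bar. Most first-table points lie above 0, with medians of 0.18, 0.05 and 0.03, while second-table medians are 0.03, -0.04 and 0.01; without centring the overall medians are -0.04 and -0.06.

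Across the 54 probes of the first table, orientation differences of 2 pairs correlated at Pearson's r of 0.08 to 0.17 and Spearman's rho of 0.06 to 0.28. Across the 111 of the second, pairs 2 and 3 had r = 0.36 and rho = 0.72, pairs 1 and 3 r = -0.07 and rho = -0.28, and pairs 1 and 2 r = 0.12 and rho = 0.06. Without the Rpl23a probe with the low array, r was 0.68 for pairs 2 and 3, -0.30 for pairs 1 and 3 and 0.12 for pairs 1 and 2. These are descriptions over probes that share RNA and slides. For the 26 genes in both tables, the orientation difference was positive for 25 by first-table and 10 by second-table values, which had r = 0.013 and rho = 0.365. The second-table value of Rpl23a, -0.25, includes the probe with the low array, and over the 25 genes without Rpl23a r was 0.330 and rho 0.491, again as descriptions. Rpl8, positive in every pair of both tables, had 0.17 ± 0.15 and 0.05 ± 0.03 (SD, n = 3 each). Rpl23 was likewise positive in every pair of both tables, with gene means of 0.11 and 0.07.

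The orientation mean asks what the swapped slides had in common. It was negative for nearly all ribosomal protein probes of both tables, and large beside the orientation difference. Among first-table probes, 24 of 54 passed the limma threshold, all negative, against 2.85% of all probes of that table, which were likewise all negative. Among second-table probes, 0 of 111 passed, and 0.0 percent of all. At an unadjusted limma p under 0.05, 48 of 54 were called, all negative, against 18.5% of all first-table probes (11.9% negative), and 101 of 111, all negative, against 16.3% (11.6% negative). The count of 24 depends on the pairs and on centring. It was 2 of 54 without pair 1, 46 without pair 2, 30 without pair 3 and 0 on uncentred values. Of all first-table probes, 49, 771, 584 and 0 passed in these settings, where 219 (2.85%) passed in the main fit. Of the 111 second-table probes, 4, 109 and 39 passed without pair 1, 2 and 3. The counts over all second-table probes moved the same way, from 0 to 84, 1872 and 194. The rise to 109 thus came with a rise over the whole table.

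The median orientation mean of ribosomal protein probes was -0.78 in the first table (pairs -0.68, -0.24 and -1.47) and -0.86 in the second (pairs -1.02, -0.13 and -1.43), against 0.02 and -0.03 for all probes; on uncentred values it was -0.35 and 0.51, where all probes had 0.45 and 1.34. Of the first-table probes, 53 of 54 were negative, against 47.8% of all, and 47 (87.0%) were negative in all 3 pairs, against 18.1%. Of the second-table probes, 111 of 111 were negative, against 56.4% of all, and 85 (76.6%) in all 3 pairs, against 17.9%. The lowest 10% of all probes held 46 of the 54 and 101 of the 111. The 100 lowest probes of a table included 11 and 10 of them, and 53 and 46 of those 100 had 1 symbol. Ribosomal proteins were 165 of the 15360 probes of both tables. The 100 lowest thus held more than their share of them, though most of the 100 were other probes.

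Large subunit probes made up 18 of the 24 that passed and 35 of the 54 members. Their median orientation means were -0.81 and -0.86 in the tables. Rpl23a was lowest in the first table, with pair values of -0.97, -0.65 and -1.99 and a mean of -1.20 ± 0.70 (SD, n = 3; limma adjusted p = 0.0033). Its arrays had a median of -0.80 with treated RNA in channel 1 and ran up to -0.42, and on the swapped slides they ran from -2.18 to -0.57 with a median of -1.22, so that every array lay below 0 in both orientations. Both probes of Rpl26, known to bind the p53 mRNA, followed with -1.13 ± 0.62 and -1.12 ± 0.59 (n = 3; adjusted p = 0.0047 in limma for both). Rpl32 had -1.07, Rpl41, the smallest ribosomal protein, -1.02, Rpl37 -1.01, and Rpl37a and Rpl12 -0.98 each. Rpl17 followed with -0.95, 2 probes of Rpl23 with -0.92 and -0.88, Rpl7 and Rpl30 with -0.84 each, Rpl36a with -0.83 and Rpl27a with -0.79. A second probe each of Rpl7 (-0.80), Rpl30 (-0.75) and Rpl27a (-0.75) did not pass. Rpl5, which carries the 5S rRNA into the ribosome, had 4 probes between -0.91 and -0.79, of which 3 passed. The 60S genes with 3 probes none of which passed were Rpl29 (-0.81 to -0.76), Rpl15 (-0.76 to -0.64) and Rpl4 (-0.73 to -0.70). The adjusted limma p-values of the 24 ran from 0.0027 to 0.0493.

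The highest 60S probe of the first table was that of Rpl8, at -0.39 ± 0.48 (SD, n = 3; limma adjusted p = 0.362). In the second table Rpl39, a short protein in the wall of the peptide tunnel, was lowest of all ribosomal proteins, with pair values of -1.40, -0.66 and -2.12 and a mean of -1.40 ± 0.73 (SD, n = 3; limma adjusted p = 0.189). Its 12 arrays all lay below 0, between -2.18 and -0.60. Among the other 60S genes, the lowest probe of Rpl17 had -1.13 and that of Rpl31 -1.11, while the 40S genes Rps26 and Rps24 had probes at -1.20 and -1.17. Rpl11, the partner of Rpl5 in the 5S particle, had -0.87 and -0.86, and Rpl10a -0.91 and -0.87. The range was -1.11 to -1.04 over 3 Rpl35 probes, -0.94 to -0.79 over 3 of Rpl6, -0.86 to -0.81 over 3 of Rpl10, -0.84 to -0.67 over 5 of Rpl4 and -0.67 to -0.45 over 4 of Rpl3. Rpl8 was again near the top, at -0.38 ± 0.60 (SD, n = 3).

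Small subunit probes had median orientation means of -0.60 (first table) and -0.86 (second). Those of the first table that passed were Rps26, both probes of Rps15a and Rps20. Rps26, which sits at the exit of the mRNA channel, had a highest pair value of -0.71, a lowest of -1.86 and a mean of -1.19 ± 0.60 (SD, n = 3; limma adjusted p = 0.0027, the smallest of the family). Its arrays ran from -1.98 to -0.57 with a median of -0.81 in one orientation and from -1.87 to -0.71 with a median of -1.19 in the other, all below 0. Rps15a had -1.08 and -1.02, and Rps20 -0.90. Rps18 had 3 probes between -0.67 and -0.52 that did not pass. Rps3 had -0.47 and Rps2 -0.39. Rps3a1 was at 0.01 ± 0.50 (SD, n = 3), with pair values of -0.13, -0.41 and 0.57, and was the only one of 54 probes above 0; on arrays scaled to equal spread all 54 were below 0.

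The lowest 40S probes of the second table were those of Rps26 (-1.20 ± 0.69), Rps24 (-1.17 ± 0.72) and Rps27 (-1.11 ± 0.65), each SD with n = 3. Rps6, the substrate of the S6 kinases, had 3 probes between -0.90 and -0.79, and Rps4x 3 between -0.91 and -0.82. Rps10 ranged from -0.97 to -0.88, Rps3a1 from -0.95 to -0.89, Rps21 from -0.95 to -0.85 and Rps15 from -0.83 to -0.72. Rpsa, which is also the laminin receptor precursor, was higher, with 5 probes between -0.68 and -0.60. Rps3 was the highest, at -0.38 ± 0.64 (SD, n = 3), with arrays of pair 2 at 0.24 to 0.40 and all other arrays at -0.56 or below.

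The stalk proteins recruit elongation factors to the 60S subunit. Rplp0 had an orientation mean of -0.73 ± 0.50 in the first table (SD, n = 3; limma adjusted p = 0.068). In the second, 3 probes of Rplp1 had -0.90, -0.88 and -0.82, and Rplp2 had -0.57 ± 0.57 (SD, n = 3). All were negative, and only Rplp2 was positive in pair 2, at 0.06. Fau, whose protein is processed to a 40S component but whose symbol the rule leaves out, had 2 probes at -0.74 and -0.67 in the first table and 2 at -0.82 and -0.71 in the second. Rps27a was not among the probes with 1 symbol.

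Relatives of ribosomal protein genes that the rule takes in did not all share these values. Rpl39l and Rps27l, paralogs of Rpl39 and Rps27, had orientation means of -0.80 ± 0.55 and -0.81 ± 0.59 in the first table and passed the limma threshold (n = 3; adjusted p = 0.0435 and 0.0421). Rpl7l1, a nucleolar relative of Rpl7, did not pass, with -0.30 ± 0.36 and -0.28 ± 0.33 (SD, n = 3) for 2 first-table probes and -0.01 ± 0.24 (SD, n = 3) in the second table. Its 2 first-table probes were among the 5 highest of the 54, and its second-table probe was the highest of the 111. That probe varied apart from the others over the 12 arrays, with r = -0.48 to the median of the other ribosomal protein probes.

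**Figure D3:**
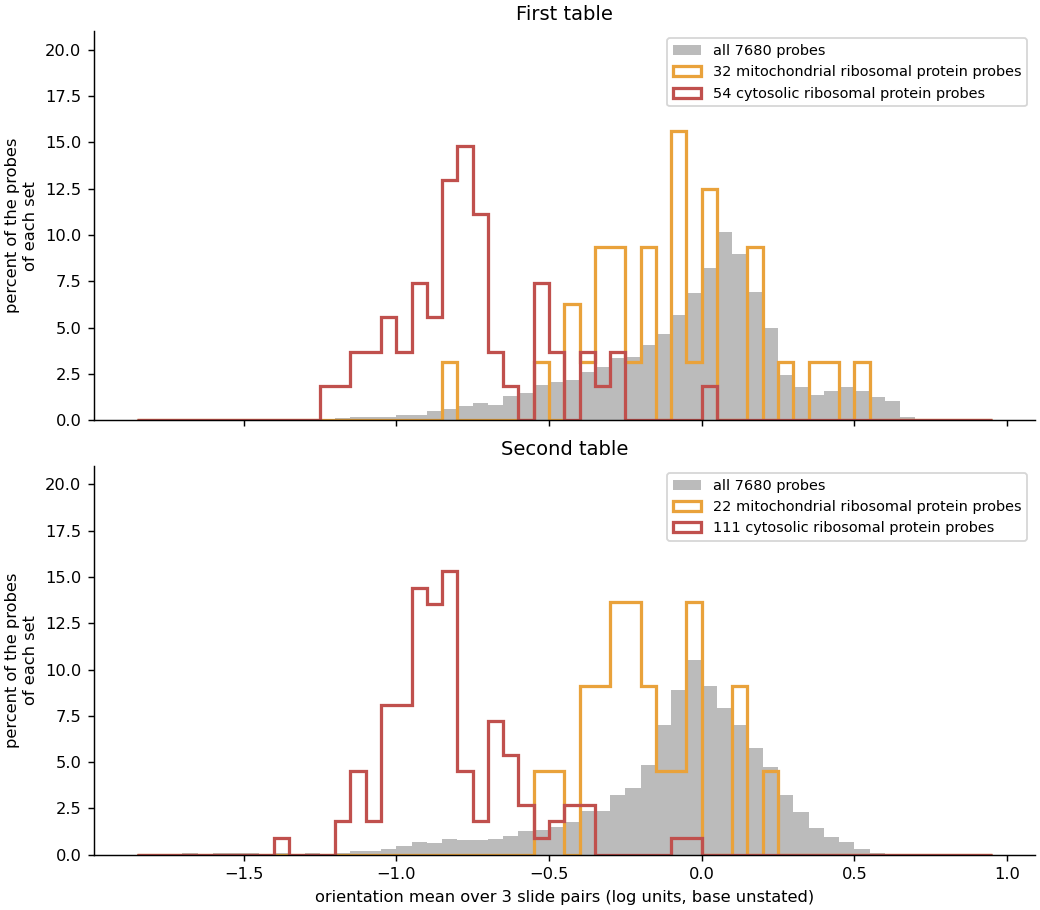
Share of probes (y axis, percent of each set) by orientation mean over 3 slide pairs (x axis, log units), for cytosolic ribosomal proteins in red, mitochondrial ribosomal proteins in orange and all probes in grey. Cytosolic medians lie at -0.78 and -0.86 and mitochondrial ones at -0.08 and -0.22; without centring the cytosolic medians are -0.35 and 0.51.

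The values of many single genes, though not of all, were alike between tables and between probes. Over the 26 genes in both tables, orientation means correlated at r = 0.562 (Spearman's rho = 0.616), a description over genes, since the labels do not say whether the tables share RNA. They differed by at most 0.05 for 12 genes and by at most 0.1 for 15. Rps26 had -1.19 and -1.20, Rpl41 -1.02 and -1.03, Rpl3 -0.51 and -0.51, and Rpl8 -0.39 and -0.38. Rps3a1 differed most, with 0.01 (first table) and -0.93 (second). Next came Rps2 with -0.39 and -0.95, Rpl23a with -1.20 and -0.74 and Rpl27 with -0.49 and -0.85. The second-table value of Rpl23a includes the probe with the low array. The first-table Rps3a1 probe correlated at r = -0.86 over 12 arrays with the median of the other ribosomal protein probes. Its identity with Rps3a1 rests on the platform annotation alone.

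**Figure D4:**
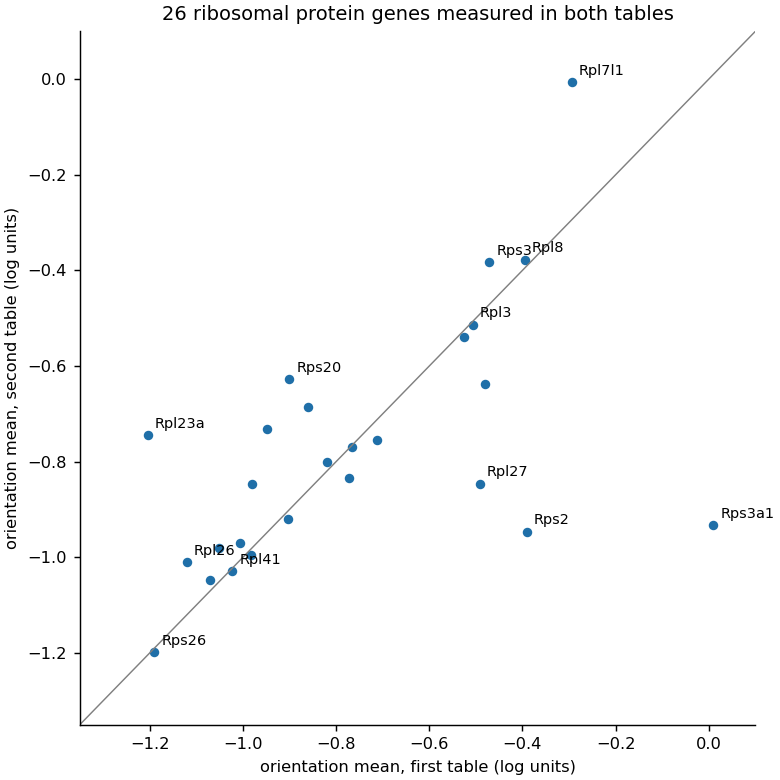
Orientation mean in the first table (x axis) against the second (y axis), both in log units, for the 26 genes measured in both, with the line of equal values. Most points lie near the line from Rps26 (-1.19 and -1.20) to Rpl8 (-0.39 and -0.38), and Rps3a1 lies farthest from it; uncentred values shift the axes and turn second-table values positive.

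Genes with several probes gave a like picture, though probes of a gene share arrays and RNA. Some, such as the 4 first-table probes of Rpl5, have probe numbers 32 apart and may be neighbouring spots, so their likeness is a description. The range of orientation means within a gene had a median of 0.04 over 13 first-table genes and 0.10 over 24 second-table genes, and was under 0.2 for 12 and 20 of them. Rpsa was the exception in the first table, with -0.67 and -0.29. In the second, Rpl17 had -1.13, -1.01 and -0.06, Rpl23a -1.11 and -0.38, 6 probes of Rpl7 ran from -0.87 to -0.58, and Rpl3 had the range given above. Without its array at -5.07 the upper Rpl23a probe had an orientation mean of 0.03. The upper Rpl17 probe had r = -0.62 to the median of the other ribosomal protein probes.

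**Figure D5:**
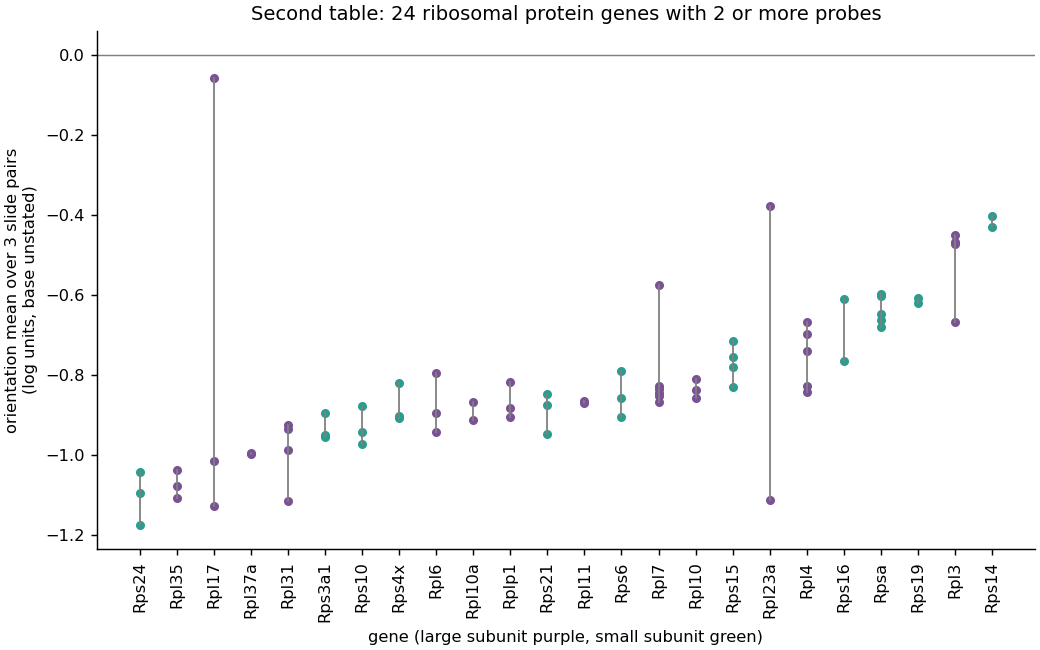
Orientation mean (y axis, log units) of each probe of the 24 second-table genes with 2 or more probes (x axis), joined by a line per gene, purple for the large and green for the small subunit. For 20 genes the probes span less than 0.2, while those of Rpl17, Rpl23a, Rpl7 and Rpl3 span more; on uncentred values most of these probes are positive.

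Over the 12 arrays of a table, ribosomal protein probes varied together. The median correlation of a probe with the median of the others was 0.980 and 0.988, and 52 of 54 (96.3%) and 106 of 111 (95.5%) were above 0.9. The same held for 28.5% and 21.4% of the other probes with 1 symbol. The 10 other probes most like the ribosomal protein median (Pearson r over 12 arrays) were, in the first table, those of Bzw2, Atp5h, Ppp1ca, Eef1b2, Kntc1, Serbp1, Myl12b, Map3k12 and 2 of Nap1l1, with r of 0.996 to 0.999. In the second they were those of Arfgap1, Slc14a1, Hmgn1, Taf13, Eef1a1, Phc2, Cnbp, Pros1, Emc8 and Ran, with r of 0.996 to 0.998. These correlations are descriptions, since the arrays share RNA pairs and slides.

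The lists of other genes with a part in translation are given for comparison, and differences between lists were not tested. Mitochondrial ribosomal proteins, which build the separate ribosome of that organelle, had medians of -0.08 over 32 probes and -0.22 over 22. Of them, 1 of 32 (3.1%) and 0 of 22 passed the limma threshold, near the 2.85% and 0.0 percent of all probes. The 1 was Mrps25, at -0.82 ± 0.53 (SD, n = 3; limma adjusted p = 0.0379). Other mRNAs known to start with a pyrimidine tract had medians of -0.83 over 23 probes and -0.59 over 32. Of these, 12 of 23 (52.2%) passed, all negative, and 0 of 32, against the same 2.85% and 0.0 percent of all probes. They were the 6 probes of the elongation factor Eef1a1 (-1.12 to -0.89), the 3 of the poly(A) binding protein Pabpc1 (-1.09 to -0.94), 2 of Nap1l1 and 1 of Eif3e (-0.87). The 11 second-table probes of Eef1a1 ran from -1.09 to -0.81, while Eef2 had 4 between -0.38 and -0.25 and Vim 0.08. Pabpc1, low in the first table, had a second-table probe at 0.07. In the first table a probe of Eef1g was at 0.04. Ribosome biogenesis factors, which process rRNA and assemble the subunits, had medians of -0.21 over 70 probes and -0.12 over 49, with 0 passing in either table. At an unadjusted limma p under 0.05, 11 of 70 and 9 of 49 of the biogenesis probes were called (15.7% and 18.4%), near the 18.5% and 16.3% of all probes.

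Orientation differences of the same lists were also mostly positive in the first table on centred values, where those of ribosomal proteins turn to -0.04 without centring. The pyrimidine-tract mRNAs had a median of 0.07, with 21 of 23 probes positive and 10 of them in every pair, beside 0.09 and 53 of 54 for the ribosomal proteins. Mitochondrial ribosomal proteins had 0.03 with 24 of 32 positive, and biogenesis factors 0.02 with 46 of 70, against 46.2% of all probes. In every pair, 3 of 32 (9.4%) and 16 of 70 (22.9%) of them were positive, against 11.4% of all probes. Second-table medians were 0.01 for both the pyrimidine-tract mRNAs and the mitochondrial ribosomal proteins, and -0.0033 for the biogenesis factors.

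Among markers of cell types, 1 list had low values, in the second table only. The 6 second-table probes of primitive erythroid genes, for 3 of the 8 genes listed, had a median orientation mean of -0.74, from -1.12 to -0.04. All were negative, against 56.4% of all probes, and 0 were called, against 0.0 percent. In pair 2, 2 of the 6 were positive. The 1 primitive erythroid probe of the first table had 0.17. First-table medians were 0.11 over 3 probes of yolk sac endoderm, 0.07 over 4 of trophoblast and decidua and -0.06 over 2 of the neural tube, the 1 second-table probe of trophoblast and decidua had 0.39, and no heart marker was measured with 1 symbol. Their part in the ribosomal protein values was not tested.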

How the data were processed

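The deposited values, judged from the values themselves, are log ratios of the 2 channels of an array and are treated as a score of unstated log base, numerator, centring and direction. What the authors did before they deposited this score (background correction, normalization, whether swapped slides were turned) is not given in the sources used here. Base 10 could not be the base, since the highest value, 7.71, exceeds the log10 of a 16-bit range, 4.82. No spot intensities or flags were at hand, so signal over background is unknown, and the number of arrays limits the precision. The tables are complete, and all probes were kept.

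Array values had the array median subtracted, the 2 arrays of a slide were averaged, and 1 orientation difference and 1 orientation mean were formed per slide pair. The titles give both slides of a pair the same number, which is the basis of the pairing; without a turn of sign, arrays of swapped slides of a pair correlated at 0.54 to 0.96 and 0.45 to 0.93. The mean of the 3 pairs was tested against 0 with limma 3.58.1 under R 4.3.3, by lmFit and eBayes, two-sided, with Benjamini-Hochberg adjustment over all probes of a table and a threshold of 0.05. The 2 tables were fitted separately. A check on simulated data covered the orientation difference only, and required only that the mean size of planted effects be recovered. The orientation mean was not part of that check. Of the probes, 4749 and 4935 had 1 symbol, 227 and 275 several and 2704 and 2470 none. Names follow the platform annotation, and 4712 and 4884 single-symbol probes were found in the RefSeq gene table; updating symbols changed 0 ribosomal protein names.

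Probes named with values are those past the threshold, the 5 most positive and 5 most negative orientation differences with 1 sign in all pairs, the 5 lowest and 5 highest orientation means per table, genes with 3 or more probes, the stalk, Rpsa, Rps3, Rps6, Rpl10a, Rpl5, Rpl11 and paralogs. Other genes, such as Rpl3 in the first table and genes of the other lists, were named after their values were seen. The genes and lists were chosen with earlier results of these data known. Alternatives were uncentred, scaled and quantile-normalized values, either array letter alone, no replicate block, either orientation alone, robust eBayes and leaving out each pair.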

Additional observations from a re-analysis of the deposited data

Results flagged for a closer look

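In 1 of 252 groups of 6 arrays examined for named ribosomal protein probes, 1 array lay far from the others. A second-table probe of Rpl23a had a centred value of -5.07 on 1 array of pair 3 with treated RNA in channel 1, while the other 5 arrays of that orientation lay between -0.22 and 0.21. Chance would set about 1 in 20 groups of independent values apart in this way, a rate that need not hold here, where arrays of a slide pair share their level. The other array of the same slide had -0.18. Without the low array, the orientation difference of the probe was -0.07 in place of -0.48 and its orientation mean 0.03 in place of -0.38, against -1.11 for the other Rpl23a probe of the table.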

How the results depend on the processing

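Limits are the 3 slide pairs, whose spread is uneven, the unstated base, numerator and turn, and the lack of intensities. For the orientation difference, the count of all first-table probes past the limma threshold (0) became 33 on uncentred values, 219 without the turn (which is the orientation mean), 174 with channel 1 slides alone, 668 with turned channel 2 slides alone and 24 to 30 without 1 pair. Ribosomal protein probes past it (0) became 24, 14 and 43 under the middle 3, and their median (0.09) became -0.035, -0.78, -0.70 and 0.86 under the first 4. In the second table the count (0) became 1 on uncentred values and 0 to 58 without 1 pair, that of ribosomal protein probes 1 and 0 to 2, and their median (-0.0047) -0.058 uncentred, -0.86 without the turn, -0.86 with channel 1 slides and 0.86 with turned channel 2 slides.

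For the orientation mean, alternatives for counts were added after seeing the data, while most of those for medians were planned. The first-table count (219) became 0 uncentred, 1099 scaled, 917 quantile-normalized and 49 to 771 without 1 pair. Ribosomal protein probes past the threshold (24) became 0, 42, 42 and 2 to 46. The second-table count (0) became 6880 uncentred, where array medians enter every probe, 270 scaled, 466 quantile-normalized and 84 to 1872 without 1 pair. Ribosomal protein probes past it (0) became 10, 51, 79 and 4 to 109, and their median -0.86 became 0.51 uncentred. With no replicate block, which takes the 6 slides as independent, 860 and 545 probes passed, of them 39 and 33 ribosomal protein probes; the orientation difference kept 0. Medians of the orientation mean ranged from -1.05 to -0.47 and from -1.23 to -0.60 without 1 pair. The causes were not tested.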
